A study of Homo sapiens with 16 samples.

Results

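Most of the replication licensing genes have products that mark origins of DNA replication for use in the next S phase. The set used here also holds CDC45, whose product acts in S phase, and GMNN, whose product limits the marking. The genes were taken by symbol from the count table as MCM2, MCM3, MCM4, MCM5, MCM6, MCM7, CDC6, CDT1, CDC45 and GMNN, which makes 10 of the 35993 genes listed. All 10 were found, and all 10 passed the filter on low counts that left 21297 genes for testing. RNA was sequenced from 4 established human lines of bladder cancer (TCCSUP, RT112, J82 and 253J), all labelled as wild type. Control cells are taken here as given vehicle, DMSO at 0.01%, although the paper's captions for the RNA data call them untreated. Treated cells received CM-1758, an inhibitor of histone deacetylases, for 48 h at the IC50 measured in that line. Each of the 8 groups had 2 libraries from separate cultures, which gave 16 libraries in all. The dose therefore differed between the cell lines, and TCCSUP was grown in EMEM where the other 3 lines were grown in DMEM GlutaMAX, so a difference between cell lines cannot be told apart from a difference in dose or, for TCCSUP, in medium.

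In late mitosis and G1, the origin recognition complex binds DNA and, together with CDC6 and CDT1, loads the MCM2 to MCM7 hexamer, the core of the replicative helicase, around it. In S phase, CDC45 and the GINS complex join the hexamer and turn it into the active helicase. Geminin, the product of GMNN, binds CDT1 and prevents a second round of loading in the same cycle. Most of these genes are known targets of the E2F transcription factors, and their products are used in pathology as markers of dividing cells.

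Most of the promoters searched held an E2F-type motif, and the sequence around it is shown for the 7 genes with a match. A link between the motif and the response to CM-1758 was not tested. RefSeq windows from 250 bases before to 50 bases after the start of transcription (build GRCh38.p14, while the counts were made on GRCh37) were available for 8 of the 10 genes. An E2F-type motif was searched on both strands in 4 spellings, with TTCCCGC and TTGGCGC as a first pair of spellings and TTCGCGC and TTGCCGC as a further pair, and matches may overlap one another. It was present in 8 of 13 windows of these genes and in 13% of 35116 windows of all genes. Counted by gene, 7 of 8 had a match at any start, against 15.3% of 27305 genes. CDC45 had no match in its 3 windows, which says only that these letters are not there. The CCAAT box was present in 9 of 13 windows (34.6% of all), and TTTGAA, part of the CHR element of mitotic genes, in 0 of 13 (15.2% of all). MCM4 and MCM5 had no entry. Stretches of the windows are given 5′ to 3′ on the strand of the gene, with the E2F-type matches in capitals:
MCM2, chr3:127598404-127598433, plus strand: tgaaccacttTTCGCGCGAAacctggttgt
MCM3, chr6:52284737-52284766, minus strand: gGCGGGAAgagttcggaagttTTCGCGCcg
MCM6, chr2:135876503-135876614, minus strand: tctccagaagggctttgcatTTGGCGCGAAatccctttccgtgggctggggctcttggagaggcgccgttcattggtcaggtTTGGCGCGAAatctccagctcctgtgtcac
MCM7, chr7:100101386-100101415, minus strand: ggggcgacgtTTCGCGCCAAtttcggttgg
CDC6, chr17:40287876-40287905, plus strand: gccattcggatTTGGCGCgagcgcggctgg
CDT1, chr16:88803749-88803778, plus strand: cgcccGCGGGAAatttgGCGGGAAccgcgc
GMNN, chr6:24775314-24775360, plus strand: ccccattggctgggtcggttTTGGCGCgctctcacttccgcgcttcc

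Total counts were between 27655401 and 32537104 in the control libraries and between 22506431 and 31547585 in the treated libraries, and small noncoding RNA genes took 9.58% to 13.2% and 10.2% to 21.3% of them. Levels are given in CPM, counts scaled to a library of 1000000 after TMM normalization. Of 18 urothelial and epithelial markers, those with at least 1 CPM in the controls numbered 17 in RT112, 11 in TCCSUP and 8 each in 253J and J82. The uroplakin gene UPK3A was at 0 counts in the control libraries of all 4 lines and UPK2 in those of 253J, J82 and TCCSUP. In RT112 controls the means of UPK1B, UPK1A and UPK2 were 1408, 5.04 and 4.30 CPM. UPK1A and UPK1B were at most 1.35 CPM on average in the controls of the other lines. The summed level of 8 markers of other cell types was 21.5 to 21.6 CPM in the TCCSUP controls and 13.1 to 13.6 CPM in its treated libraries. In the other lines it was between 0.579 and 5.62 CPM in control and between 4.04 and 7.73 CPM in treated libraries, higher when treated in each line. In TCCSUP controls the monocyte marker CD14 and the leukocyte marker PTPRC had means of 11.1 and 9.58 CPM. The T cell marker CD3E was at 0 in every control group. The part of these markers in the results was not tested.

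With CM-1758 most licensing genes fell in 253J, J82 and RT112, and fewer than that fell in TCCSUP, where some rose. In 253J all 10 genes fell, where 22.4% of all tested genes were called lower and 28.8% higher. In RT112, 9 of 10 fell and CDC6 did not pass the test (20.2% of tested genes lower, 27.4% higher). In J82, 7 of 10 fell, and MCM6, CDC6 and GMNN did not pass (18.5% lower, 24% higher). In TCCSUP, MCM7 and CDC45 fell, MCM2, MCM6, CDC6 and GMNN rose, and MCM3, MCM4, MCM5 and CDT1 did not pass (22.1% lower, 32% higher). The 2 members lower and 4 higher of 10 in TCCSUP are near the shares of all tested genes. Taking the lines in the order 253J, J82, RT112 and TCCSUP, the 10 genes had median log2 fold changes of -2.05, -0.77, -1.25 and 0.04, beside 0.10, 0.05, 0.12 and 0.20 for all tested genes. A gene was called at an adjusted p under 0.05 by the quasi-likelihood test of edgeR, with p-values adjusted by the method of Benjamini and Hochberg, and log2 fold changes are treated over control with their standard error (SE). In bulk RNA, fewer cells that express a gene and less RNA per cell cannot be told apart. At the stricter limit of a log2 fold change below -2 and an adjusted p under 0.01, 6 members were lower in 253J (3.5% of all genes), 1 in RT112 (1.39%) and 0 in J82 and TCCSUP (1.24% and 3.31%), and 0 were higher by the same limit in any line (9.43%, 8.81%, 11.4% and 14.2% of all genes in 253J, J82, RT112 and TCCSUP). At a log2 fold change beyond 1 and an adjusted p under 0.05, 9, 3, 7 and 0 members were lower in that order of lines (13.4%, 7.37%, 8.24% and 11.6%), and 0 were higher (20.2%, 17.5%, 20.4% and 24%). The 2 treated libraries lay below both controls for 10, 7, 10 and 3 members (32.1%, 27.9%, 32.5% and 33.1% of tested genes). They lay above both controls for 0, 1, 0 and 5 members (40.9%, 34.8%, 41.8% and 45.4%). For TCCSUP, the 3 members below and 5 above are again near the shares of all tested genes.

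**Figure D1:**
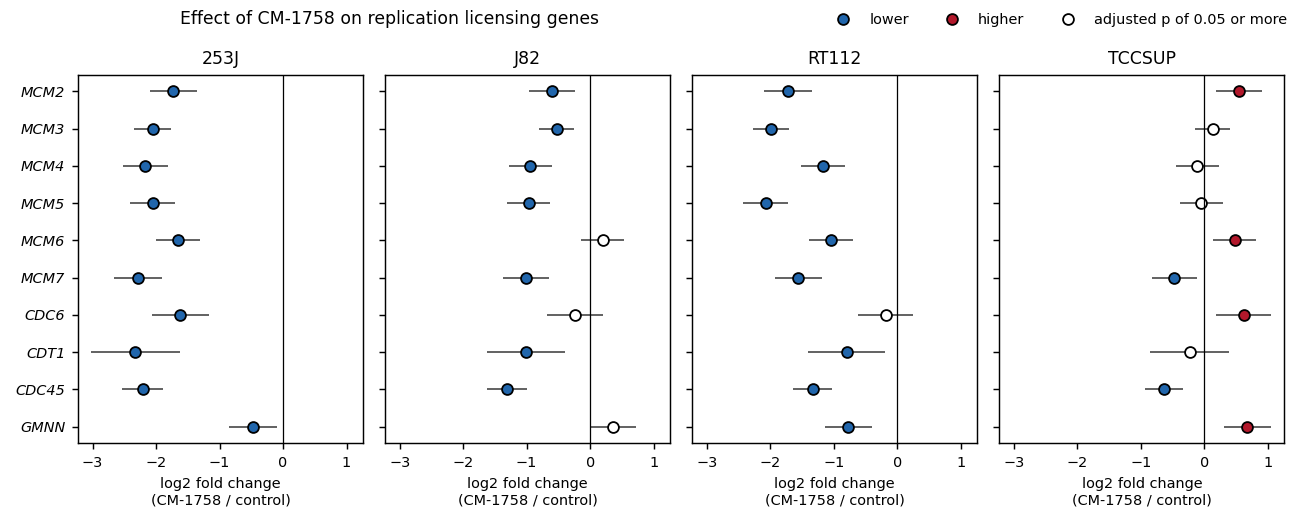
Log2 fold change of the 10 genes, CM-1758 over control, in each cell line (horizontal axis) with 95% confidence intervals, where blue points are called lower, red points higher and open points have an adjusted p of 0.05 or more. In 253J all 10 points lie to the left of 0, and in TCCSUP they lie on both sides of it, from -0.64 for CDC45 to 0.68 for GMNN.

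Of the hexamer genes, MCM2 fell in 3 lines and rose in TCCSUP. MCM2, a subunit that also binds histones, stood at 320.4 and 262 CPM in the 253J controls and at 100.2 and 75.6 CPM with CM-1758. In RT112 it stood at 334 and 273 CPM and then at 97.3 and 87.2 CPM. The treated libraries of both lines lay far below their controls, and MCM2 fell by 1.73 on the log2 scale in 253J (SE 0.18, adjusted p = 1.41e-06, edgeR) and by 1.72 in RT112 (SE 0.18, adjusted p = 2.32e-06, edgeR). J82, with the highest control levels of MCM2, 1029.7 and 1241 CPM, had 717 and 778 CPM after treatment, a log2 fold change of -0.60 (SE 0.17, adjusted p = 0.00993, edgeR). In TCCSUP the order was turned: 102 and 113 CPM in the controls and 152 and 162 CPM with CM-1758, a log2 fold change of 0.54 (SE 0.17, adjusted p = 0.015, edgeR). Groups did not overlap in any line. The J82 call was lost without control replicate 3 (adjusted p = 0.0773), without treated replicate 1 (0.102) and with J82 fitted alone by edgeR (0.109) but not by DESeq2 (0.0364), and the TCCSUP call without control replicate 1 (0.109) or treated replicate 2 (0.0767). Exons of MCM2 overlap those of the antisense gene AC023593.1 over 30.7% of their length, and whether reads were counted by strand is not given in the sources used here.

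MCM3, MCM4 and MCM5 fell in 253J, J82 and RT112 and did not pass the test in TCCSUP. MCM3 had 220.4 and 186 CPM in the 253J controls against 52.7 and 44.9 CPM when treated, and 282 and 273 against 68.4 and 71.9 CPM in RT112, which are log2 fold changes of -2.06 and -1.99. MCM5 went from 126 and 107 to 32.9 and 23.6 CPM in 253J and from 219 and 202 to 53.3 and 46.9 CPM in RT112, or -2.05 and -2.07. These are decreases of about the same size for both genes in both lines. MCM4 fell by 2.17 in 253J, where its libraries went from 195 and 164 to 46.0 and 33.8 CPM, and by 1.17 in RT112, from 429 and 424 to 203 and 176 CPM. In J82 the log2 fold changes were smaller, -0.52 for MCM3, -0.94 for MCM4 and -0.97 for MCM5 (SE 0.13 to 0.16). The MCM3 call in J82 was lost when that line was fitted alone (adjusted p = 0.0896 by edgeR, 0.0711 by DESeq2).

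In TCCSUP the same genes were near their control levels. MCM3 had 191 and 189 CPM in the controls and 201 and 215 CPM with CM-1758, a log2 fold change of 0.13 with a 95% confidence interval of -0.15 to 0.41. MCM4 had 152 and 172 CPM and then 148 and 152 CPM, with an interval of -0.45 to 0.23. MCM5 had 104 and 112 CPM and then 99.8 and 109 CPM, with an interval of -0.39 to 0.29. The groups overlapped for MCM4 and MCM5 and not for MCM3, and a decrease of the size seen in 253J lay outside all 3 intervals. With libraries scaled by their size alone, MCM3 was called higher in TCCSUP (0.44, adjusted p = 0.00726, edgeR).

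Among the hexamer genes, the log2 fold change was highest for MCM6 and lowest for MCM7 in 253J and in J82. MCM6 fell in 253J, from 139 and 105 to 41.5 and 35.9 CPM (log2 fold change -1.66, SE 0.16, adjusted p = 1.02e-06, edgeR), and in RT112, from 54.0 and 54.7 to 22.4 and 30.5 CPM (-1.04, SE 0.16, adjusted p = 0.000109, edgeR). In J82 it had 91.8 and 96.1 CPM in the controls and 109 and 107 CPM when treated, a log2 fold change of 0.20 that did not pass (95% confidence interval -0.14 to 0.54, adjusted p = 0.335, edgeR). In TCCSUP it had 61.1 and 66.3 CPM and then 87.5 and 89.7 CPM, a rise of 0.48 (SE 0.16, adjusted p = 0.0197, edgeR). MCM6 was thus above its controls in every treated library of J82 and TCCSUP and below them in every treated library of 253J and RT112. The call in TCCSUP was lost without any 1 of its 4 libraries, with adjusted p-values of 0.126 and 0.0553 without control replicates 1 and 2 and of 0.0665 and 0.0808 without treated replicates 1 and 2.

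MCM7, the hexamer gene with the largest decrease in 253J, went there from 483 and 392 to 106 and 73.1 CPM, a log2 fold change of -2.29 (SE 0.18, adjusted p = 1.3e-07, edgeR). In J82 it went from 512 and 589 CPM to 274 CPM in both treated libraries, and in RT112 from 304 and 294 to 104 and 98.6 CPM, log2 fold changes of -1.01 and -1.56. In TCCSUP it had 301 and 336 CPM in the controls and 221 and 239 CPM with CM-1758, a decrease of 0.47 (SE 0.17, adjusted p = 0.0285, edgeR). MCM7 was the only hexamer gene called lower in TCCSUP. That call was lost with scaling by library size alone (-0.16, adjusted p = 0.422), with at least 10 counts required in every library (-0.32, 0.108), and without control replicate 2 (0.153), treated replicate 1 (0.137) or treated replicate 2 (0.0672). Exons of MCM7 overlap those of AP4M1 on the other strand over 7.58% of their length.

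**Figure D2:**
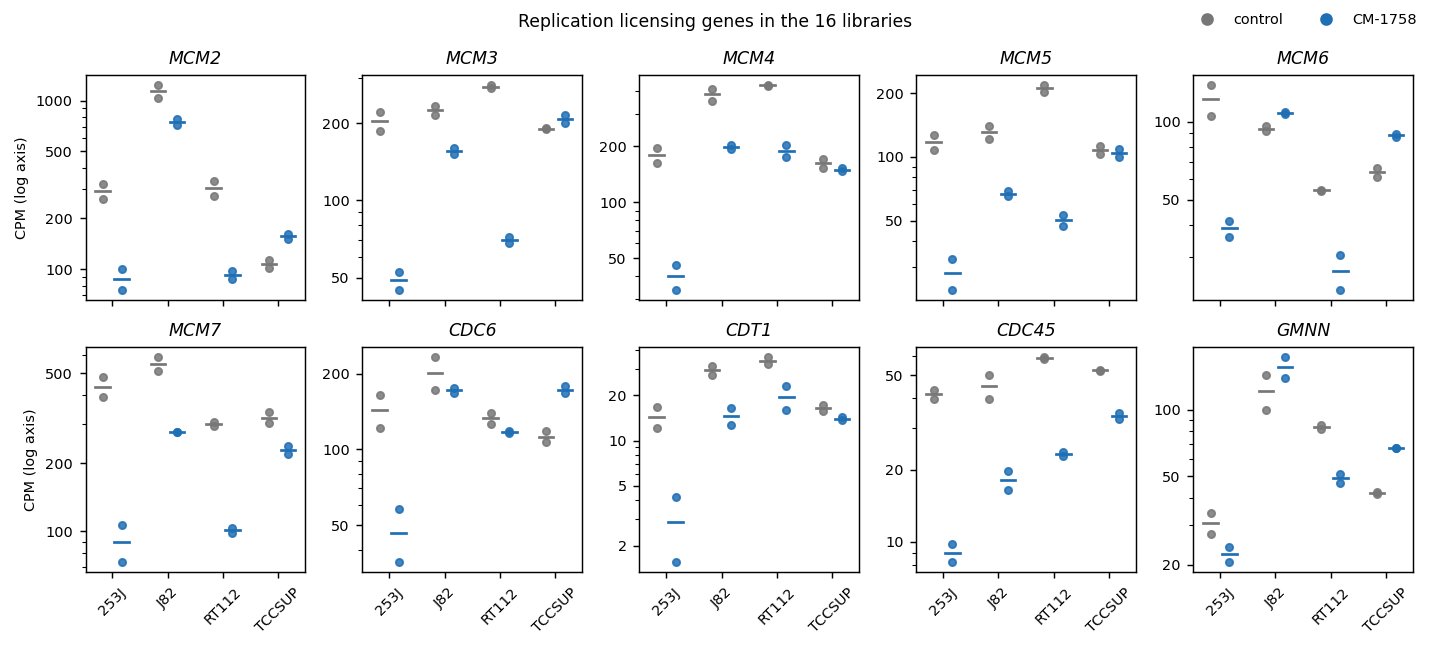
CPM of each gene (log axis) in the 16 libraries, grouped by cell line, with 1 point for each library and control and CM-1758 libraries in different colours. The treated points of 253J lie below both controls for all 10 genes. Those of TCCSUP lie above both controls for 5 genes and below them for 3, and for MCM4 and MCM5 their range overlaps that of the controls.

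Per kilobase of exon, the scale on which genes can be compared, the 6 hexamer genes were not at equal levels in any line. In the controls MCM6 was the lowest in all 4 lines, and the highest was MCM7 in 253J and TCCSUP, MCM2 in J82 and MCM4 in RT112. The ratio of highest to lowest was 3.67 in 253J, 5.12 in TCCSUP, 6.76 in RT112 and 12.5 in J82, where MCM2 alone made up 45.8% of the summed level. With CM-1758 the ratio was 3.08, 2.73, 6.17 and 10.9 in the same order, and in 253J and J82 MCM5 became the lowest. With the longest transcript in place of all exons, an alternative chosen after seeing the data, the control ratios were 4.34, 6.06, 7.02 and 12.5. In CPM, not divided by length, the sum of the 6 genes was 1350 ± 190 in 253J controls and 333 ± 65.5 with CM-1758 (mean ± SD, n = 2). It was 2516 ± 273 and 1551 ± 28.0 in J82, 1572 ± 71.9 and 530 ± 26.8 in RT112, and 950.04 ± 54.3 and 938 ± 41.3 in TCCSUP. The libraries of both treatments overlapped in this sum in TCCSUP, and the treated libraries lay below the controls in the other 3 lines.

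**Figure D3:**
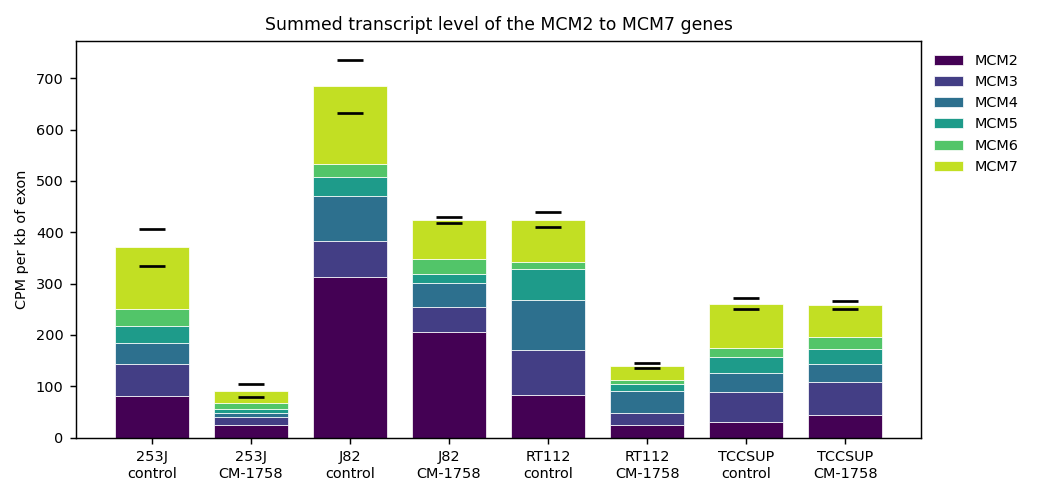
Mean level per kilobase of exon (vertical axis, CPM per kb) of MCM2 to MCM7, stacked for each of the 8 groups, with short black lines at the summed level of the 2 libraries. The stack is lower with CM-1758 in 253J, J82 and RT112 and nearly the same in TCCSUP, where the share of MCM7 was 33.4% in the controls.

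Of the loading factors, CDC6 fell in 253J and rose in TCCSUP, and CDT1 fell in 253J, J82 and RT112. CDC6, an ATPase of the loading complex, had 164 and 122 CPM in the 253J controls and 57.7 and 35.6 CPM with CM-1758, a log2 fold change of -1.62 (SE 0.21, adjusted p = 1.46e-05, edgeR). In TCCSUP it had 107 and 118 CPM in the controls and 178 and 167 CPM with CM-1758, a rise of 0.62 (SE 0.21, adjusted p = 0.0194, edgeR). In J82 (171 and 232 CPM, then 176 and 167 CPM) and RT112 (127 and 139 CPM, then 118 and 116 CPM) it did not pass, with 95% confidence intervals of -0.67 to 0.20 and -0.62 to 0.25. RT112 was thus a line in which the hexamer genes fell and CDC6 was close to its control level. The TCCSUP call for CDC6 was lost without control replicate 1 (adjusted p = 0.118), control replicate 2 (0.0538) or treated replicate 1 (0.0935).

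CDT1, which brings the hexamer to the origin, was the member with the lowest level per kilobase of exon in every group, and its 2 treated libraries of 253J were 1.45 apart on the log2 scale, the widest gap between replicates of any member. In 253J it had 16.6 and 12.1 CPM in the controls and 4.24 and 1.55 CPM with CM-1758, from 107 and 46 counts, a log2 fold change of -2.33 (SE 0.33, adjusted p = 2.97e-05, edgeR). In J82 it went from 31.2 and 27.4 to 16.5 and 12.7 CPM, a log2 fold change of -1.01 (SE 0.29, adjusted p = 0.0107, edgeR). All treated libraries of these lines lay below their controls. In RT112 it went from 32.1 and 35.8 to 23.2 and 15.98 CPM, -0.79 (SE 0.28, adjusted p = 0.032, edgeR). In TCCSUP it had 15.7 and 17.2 CPM and then 13.7 and 14.3 CPM, with a 95% confidence interval of -0.85 to 0.39. The J82 call was lost without treated replicate 3 (adjusted p = 0.0887). The RT112 call was lost without control replicate 1 (0.0691), control replicate 2 (0.133) or treated replicate 2 (-0.55, 0.234), with RLE normalization (0.0516), library size alone (0.0797), DESeq2 on all lines (0.059) and at least 10 counts in every library (0.051).

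GMNN, the inhibitor of CDT1, fell in 253J and RT112, rose in TCCSUP and did not pass in J82. In 253J it had 34.3 and 27.4 CPM in the controls and 24.1 and 20.5 CPM with CM-1758, the smallest change of the 10 genes in that line (-0.47, SE 0.18, adjusted p = 0.0376, edgeR). In RT112 it fell from 85.4 and 81.8 to 46.6 and 51.3 CPM (-0.77, SE 0.17, adjusted p = 0.00201, edgeR). J82 libraries overlapped, with 99.3 and 143 CPM in the controls and 139 and 172 CPM when treated (0.36, adjusted p = 0.103, edgeR). In TCCSUP GMNN rose from 42.5 and 41.4 to 66.9 and 67.2 CPM, 0.68 on the log2 scale (SE 0.17, adjusted p = 0.00434, edgeR), and this was the only one of the 4 rises in TCCSUP that held without each library in turn. The 253J call was lost without control replicate 2 (-0.30, adjusted p = 0.292) or treated replicate 3 (0.225), and under 7 other settings (0.0556 to 0.335). In J82 it was called higher in 5 other settings (0.38 to 0.51, adjusted p 0.0155 to 0.0449) and without control replicate 3 (0.65, 0.0101) or treated replicate 1 (0.59, 0.0282).

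The balance of geminin to CDT1 transcripts, as a ratio of levels per kilobase, was 4.92 and 5.42 in the 253J controls and 13.5 and 31.5 with CM-1758. It was 7.58 and 12.4 and then 20.1 and 32.2 in J82, and 6.47 and 5.74 and then 11.7 and 11.2 in TCCSUP. In RT112 it was 6.35 and 5.45 and then 4.79 and 7.65. The ratio was higher in both treated libraries than in both controls of 253J, J82 and TCCSUP and overlapped in RT112. This difference was not tested.

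CDC45, the activator of the loaded hexamer, and MCM7 were the 2 members called lower in all 4 lines, as were 6.01% of tested genes. Its libraries went from 43.2 and 39.8 to 9.75 and 8.20 CPM in 253J (-2.21, SE 0.15, adjusted p = 4.94e-08, edgeR) and from 39.8 and 50.02 to 19.8 and 16.5 CPM in J82 (-1.31, SE 0.15, adjusted p = 6.09e-06, edgeR). In RT112 they went from 58.7 and 59.5 to 23.9 and 23.0 CPM (-1.33, SE 0.14, adjusted p = 4.01e-06, edgeR). In TCCSUP they went from 52.8 and 52.2 to 32.8 and 34.7 CPM, a decrease of 0.64 (SE 0.14, adjusted p = 0.00157, edgeR). Groups did not overlap in any line. With library size alone the TCCSUP value was -0.33 (adjusted p = 0.0573).

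The difference between cell lines was fitted directly. The 10 genes were chosen with their different response in TCCSUP already known from these libraries, so the p-values here describe that choice and are not independent evidence of it. The effect of CM-1758 differed between the 4 lines for all 10 genes (adjusted p 4.27e-07 to 0.00625, edgeR F test), as it did for 51.9% of all tested genes. Against the mean effect in the other 3 lines, the effect in TCCSUP was higher for all 10 members and for 9.75% of tested genes. The difference was largest for MCM2, 1.89 (SE 0.20, adjusted p = 8.19e-06, edgeR), and smallest for GMNN, 0.97 (SE 0.20, adjusted p = 0.00255, edgeR). These differences on the log2 scale held without each of the 16 libraries in turn for 9 of 10 members, and for CDT1 (1.14, adjusted p = 0.0236, edgeR) the call was lost without any 1 of the TCCSUP libraries (0.107 and 0.0708 without control replicates 1 and 2, 0.0702 and 0.084 without treated replicates 1 and 2). The effect in 253J was below the mean of the others for all 10 genes (18.3% of tested genes), from -1.68 for CDC6 to -0.56 for GMNN. The effect in RT112 was below it for MCM2, MCM3, MCM5, MCM6 and GMNN (12.4%), and that in J82 was above it for MCM3 and MCM6 (10.3%). The 4 contrasts are made from the same libraries and are not independent.

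Genes that fell in 253J, J82 and RT112 and rose in TCCSUP were few: 18 of 21297 tested genes, or 0.0845%, MCM2 among them. Genes that fell in 253J and RT112 and rose in TCCSUP numbered 93, or 0.437%, with MCM2, MCM6 and GMNN among them. The counts rest on calls in each line and are descriptions.

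Before treatment the lines already differed in these genes. Control levels differed between the 4 lines for all 10 members, as for 78.8% of tested genes (edgeR F test). MCM2 spanned the widest range, 1136 CPM in J82 against 108 CPM in TCCSUP, or 10.5-fold, with RT112 and 253J between them at 304 and 291 CPM and not different from each other (adjusted p = 0.837, edgeR). GMNN, next in range at 3.92-fold, was ordered J82, RT112, TCCSUP and 253J, and every neighbour in that order differed. CDC45 had the narrowest range, 1.42-fold from RT112 to 253J, and no neighbours in its order differed. TCCSUP controls had the lowest level of MCM2, MCM3, MCM4, MCM5 and CDC6, although for all of these but MCM2 the difference from the next line did not pass the test.

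After treatment the order was different. Treated levels differed between the lines for all 10 genes (83.7% of tested genes), and TCCSUP stood highest for MCM3, MCM5, CDC6 and CDC45. For MCM3 it had 208 CPM against 156 CPM in J82 (adjusted p = 0.0143, edgeR), for MCM5 104 against 67.0 CPM in J82 (0.00366) and for CDC45 33.7 against 23.4 CPM in RT112 (0.00676), while for CDC6 it did not differ from J82 (173 and 171 CPM). The 253J cells had the lowest treated level of 9 of 10 members, with RT112 lowest for MCM6. For MCM2 and MCM7 the treated level of 253J did not differ from that of RT112 (adjusted p = 0.756 and 0.392, edgeR). Thus TCCSUP held the highest level of MCM3 and MCM5 after CM-1758. Its control levels of both were the lowest but did not differ from those of 253J (adjusted p = 0.588 and 0.591, edgeR).

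The other genes of the pathway, 86 in 8 lists, were more often lower than higher in every line. In 253J 65 were lower and 8 higher, in J82 51 and 10, in RT112 54 and 7, and in TCCSUP 40 and 16, where 22.4% and 28.8%, 18.5% and 24%, 20.2% and 27.4%, and 22.1% and 32% of all tested genes were lower and higher. The pathway genes had median log2 fold changes of -1.10, -0.57, -0.59 and -0.38, beside 0.10, 0.05, 0.12 and 0.20 for all tested genes, and the same shares apply to each list of the pathway. Of the 6 genes of the origin recognition complex, the platform for loading, 4, 2, 4 and 0 were lower in 253J, J82, RT112 and TCCSUP, and 2, 1, 0 and 2 higher, so that the 2 higher in TCCSUP are near the share of all genes. ORC1 and ORC6, the subunits most tied to the cell cycle, fell in 253J (-2.02 and -1.82), J82 (-0.98 and -1.30) and RT112 (-1.20 and -1.28) and were at -0.23 and -0.39 in TCCSUP, where neither passed. ORC2 fell in 253J (-0.61) alone, ORC3 in 253J (-0.97) and RT112 (-0.59), and ORC4 rose in 253J (0.63), J82 (0.46) and TCCSUP (1.02). ORC5 rose in 253J (0.73) and TCCSUP (0.74) and fell in RT112 (-0.44).

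Among relatives and partners of the hexamer, MCM9, a helicase of recombination repair, fell in all 4 lines (-1.51, -1.76, -1.63 and -1.12), and so did MCMBP, which binds MCM proteins (-1.29, -0.56, -0.74 and -0.57). Of the 5 genes of that list, 4, 5, 4 and 2 were lower in 253J, J82, RT112 and TCCSUP. Of 16 firing factors, 15, 12, 11 and 9 were lower and 0, 3, 1 and 3 higher. TIMELESS of the fork protection complex fell by 2.06, 1.59, 1.04 and 1.40 in the 4 lines, MTBP, a partner of the firing factor TICRR, by 2.21, 1.01, 1.16 and 1.10, and the helicase gene RECQL4 by 2.21, 1.05, 1.07 and 0.90. GINS4, which enters the active helicase, fell in 253J (-0.81) and rose in J82 (0.91), RT112 (0.69) and TCCSUP (0.50). WDHD1 fell in 253J (-0.81) and RT112 (-0.61) and rose in J82 (0.49).

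Of 12 genes for the turnover of CDT1 and geminin, 9, 5, 7 and 10 were lower in 253J, J82, RT112 and TCCSUP and 1, 0, 1 and 1 higher. CKS1B, a partner of the SKP2 ubiquitin ligase, fell by 2.27, 1.44, 1.00 and 2.39, CUL1 by 1.42, 0.92, 0.85 and 0.91, and CUL4A by 0.69, 0.70, 0.68 and 0.78. DTL, the receptor that targets CDT1 for destruction in S phase, fell in 253J (-2.17) and RT112 (-0.86) and rose in TCCSUP (0.62). CUL4B rose in RT112 (1.00) and fell in TCCSUP (-0.91). Of 2 relatives of geminin, named after their values were seen, MCIDAS fell in 253J, from 6.64 to 0.706 CPM, and GMNC, with at most 0.0383 CPM on average in any control group, was called higher in 253J, RT112 and TCCSUP, at 3.33, 1.41 and 1.05 CPM.

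The polymerases, clamp and RPA, which copy DNA once the helicase runs, were lower for 17, 15, 16 and 7 of 24 genes and higher for 1, 4, 2 and 6. In TCCSUP the 7 lower and 6 higher are near the shares of all tested genes (22.1% and 32%). Against the mean of the other lines, 14 of the 24 were higher in TCCSUP and 0 lower, as were 9.75% and 12.9% of all tested genes. LIG1 (-1.66, -1.22, -1.27 and -0.70), POLE2 (-1.98, -0.72, -1.22 and -0.68) and DNA2 (-1.25, -0.74, -1.17 and -0.83) nevertheless fell in all 4 lines. The primase gene PRIM1 rose in J82 (0.70) and TCCSUP (0.64) and fell in RT112 (-0.61). Of 8 genes of nucleotide supply, 7, 7, 5 and 7 were lower. In TCCSUP 0 of the 8 were above and 1 was below the mean of the other lines, which is near the shares of all tested genes. TYMS fell by 1.87, 1.51, 1.14 and 1.63, DTYMK by 1.74, 1.20, 1.44 and 1.71, and RRM1 by 2.06, 0.45, 1.55 and 1.19.

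The mitotic genes, which act after S phase, had another order of cell lines. All 15 fell in 253J, J82 and TCCSUP, and in RT112 only CCNB2 passed, at -0.58 (SE 0.22, adjusted p = 0.0424, edgeR). Of all tested genes, 22.4%, 18.5%, 20.2% and 22.1% were called lower in 253J, J82, RT112 and TCCSUP. Their median log2 fold changes in 253J, J82, RT112 and TCCSUP were -2.47, -1.17, -0.34 and -2.33. Against the mean of the other 3 lines the effect was higher in RT112 for all 15 mitotic genes (11.8% of tested genes) and lower in TCCSUP for 12 of 15 (12.9%). In TCCSUP the mitotic genes ran from -3.41 for CCNB2 to -1.76 for BUB1, and the licensing genes from -0.64 for CDC45 to 0.68 for GMNN. In RT112 the mitotic genes ran from -0.71 for AURKB to 0.18 for BUB1, and the licensing genes from -2.07 for MCM5 to -0.18 for CDC6. Of these 2 lines, RT112 had the higher median for the mitotic genes and TCCSUP for the licensing genes.

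Among the transcription factors, E2F1, an activator of S phase genes, had log2 fold changes of -2.38, -0.99, -1.60 and 0.04 across 253J, J82, RT112 and TCCSUP. It fell from 48.5 to 9.35 CPM in 253J, from 155 to 78.1 CPM in J82 and from 63.8 to 21.0 CPM in RT112, and had 55.4 and 57.0 CPM in TCCSUP. Of 10006 genes with a mean log2 CPM of at least 3 that are not members, E2F1 was the one whose 4 fold changes were closest to the median of MCM2 to MCM7 (-2.05, -0.77, -1.64 and 0.04), with a root mean square difference of 0.197 over the 4 lines. SFXN4 (0.244), CDCA7 (0.252), HYAL2 (0.263) and GINS2 (0.267) came next. Likeness over 4 lines, chosen from many genes, is a description.

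Of the other E2F genes, E2F2 fell in 253J (-2.03) and RT112 (-0.59) and rose in TCCSUP (0.84), and E2F3 fell in 253J (-1.05), RT112 (-0.59) and TCCSUP (-0.49). E2F8, a repressor, fell in all 4 lines (-2.58, -0.51, -0.56 and -0.81), and E2F7 in 253J (-1.20), J82 (-0.45) and TCCSUP (-0.42). E2F6 rose in 253J (0.40), RT112 (0.48) and TCCSUP (0.42). E2F4 fell in RT112 (-0.41) and E2F5 in 253J (-0.93), with no call elsewhere. Of the 13 genes of the list with DP and pocket proteins, 8, 5, 7 and 5 were lower and 2, 1, 1 and 3 higher in 253J, J82, RT112 and TCCSUP. TFDP1, the partner of the E2F proteins, fell by 1.00, 1.40, 1.15 and 0.76 and the pocket protein gene RBL1 by 1.37, 0.85, 0.73 and 0.66.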

How the data were processed

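Total RNA from 16 cultures was made into stranded libraries with ribosomal RNA removed. The authors deposited 1 table of raw counts, whole numbers of reads per gene symbol and library, with no normalization. The submitters' processing notes name GRCh37, HISAT2 and StringTie, and the annotation, the counting settings and the use of strand are not given in the sources used here. Groups came from the labels, and every column matched 1 sample. From the counts, filterByExpr over the 8 groups left 21297 of 35993 genes. TMM factors (0.846 to 1.03 in controls, 0.937 to 1.13 when treated) were applied, and the quasi-likelihood model of edgeR 4.0.16 (R 4.3.3) was fitted to all 16 libraries as 8 group means, with a common biological coefficient of variation of 0.153 and Benjamini-Hochberg adjustment over all genes within each contrast. With 2 libraries a group the fit had 8 residual degrees of freedom, and the spread was shared across genes and groups. SE is the log2 fold change over the square root of F. Gene lengths are unions of exons in GENCODE 29. The script was tested on simulated data.

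Replicates correlated at r of 0.983 to 0.991 (log2 CPM, across genes), and no 2 libraries were alike within sampling noise. Named were all 10 licensing genes, all ORC and E2F genes, of each list at most 3 genes called in the same direction in all 4 lines (by mean size of the log2 fold change) and at most 2 called in opposite directions (by range), and the 5 genes nearest to MCM2 to MCM7. The genes and lists were chosen with earlier results of these data known. Alternatives were other normalizations, filters, tools (DESeq2 1.42.0), thresholds, samples in the fit, a replicate block and leaving out each library.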

Additional observations from a re-analysis of the deposited data

Results flagged for a closer look

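The effect of CM-1758 differed between the 4 cell lines by an edgeR F test of the difference itself, with Benjamini-Hochberg adjustment over all tested genes, for each of the 10 licensing genes. The adjusted p was 6.35e-06 for MCM2, 4.27e-07 for MCM3, 3.39e-05 for MCM4, 8.39e-06 for MCM5, 5.69e-06 for MCM6 and 0.000123 for MCM7. It was 0.000154 for CDC6, 0.00625 for CDT1, 0.000164 for CDC45 and 0.00048 for GMNN. The same test passed for the 7 pathway genes named because they moved in opposite directions, with an adjusted p of 0.00029 for ORC5, 0.000198 for GINS4, 0.000169 for WDHD1, 1.89e-06 for DTL, 5.01e-05 for CUL4B, 0.00147 for PRIM1 and 5.62e-06 for E2F2. Those 7 were chosen from these same fold changes, so their p-values describe the choice. The 10 licensing genes were likewise chosen with their response in these lines known. The F test passed for 51.9% of all tested genes.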

How the results depend on the processing

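All 10 members differed between the cell lines in every alternative run, and TCCSUP exceeded the mean of the other lines for all 10 except when 1 library was left out (9 to 10). At a log2 fold change beyond 1, members lower numbered 3 in J82 and 0 in TCCSUP and members higher 0 in TCCSUP. At the stricter limit beyond 2, members lower in 253J, J82, RT112 and TCCSUP were 6, 0, 1 and 0, and members higher 0 in TCCSUP. In J82, 1 member, GMNN, was higher with RLE normalization, library size alone, DESeq2 on all lines, at least 10 counts in every library and the replicate block. In TCCSUP the members lower numbered 0 with library size alone and 1 with at least 10 counts. Pathway genes higher numbered 14 in 253J with library size alone and 5 in J82 with edgeR on that line alone.

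Without 1 library, members lower in 253J, J82, RT112 and TCCSUP ran from 9 to 10, 6 to 7, 8 to 9 and 1 to 2, and members higher from 0 to 1 in J82 and 1 to 2 in TCCSUP. Pathway genes higher ran in the same order from 5 to 7, 5 to 11, 4 to 6 and 11 to 13. An arm of 1 library was assumed to vary like the other groups.

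Direction reversed for MCM4 in TCCSUP (0.20 with library size alone, 0.040 with at least 10 counts), MCM5 in TCCSUP (0.26 and 0.10, and -0.11 to 0.0047 without 1 library, with 0.0047 and 0.0044 without control replicate 2 or treated replicate 1), CDT1 in TCCSUP (0.080 with library size alone) and CDC6 in J82 (-0.44 to 0.0002 without 1 library, the latter without control replicate 3), none of which had been called. Library size alone moved the median of all genes by 0.27, 0.15, 0.15 and 0.31 in 253J, J82, RT112 and TCCSUP, and at least 10 counts by 0.081, 0.11, 0.13 and 0.15. Other causes were not tested.

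Replicates set side by side by number deviated together at r of 0.053, 0.218, 0.043 and 0.017 in the 4 lines. With so few libraries, these values cannot decide whether replicates of the same number were paired. In 253J only 1 number was shared by control and treated libraries, so its r also uses libraries of different numbers. The effect in 253J with the replicate block therefore rests on 1 pair of libraries. With the replicate block, 9, 8, 9 and 6 members were called, GMNN in 253J was lost (-0.42, adjusted p = 0.0616) and GMNN in J82 gained (0.38, adjusted p = 0.0155), and 8546 genes were called in 253J in place of 10915. In J82, RT112 and TCCSUP the block gave 9683, 10692 and 11965 genes called in place of 9044, 10150 and 11518. Members higher in J82 numbered 1 with the replicate block. With 2 libraries a group, small changes such as those of MCM2 and MCM6 in TCCSUP are at the limit of what was called, and CDT1 in treated 253J rests on 46 and 107 counts.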
